A study of Mus musculus with 45 samples.

Results

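Nanog, Esrrb, Zfp42, Tfcp2l1, Tbx3, Nr0b1, Prdm14, Sall4 and Nr5a2 encode transcription factors of the naive pluripotent state of the mouse. They are 9 of the 23575 genes measured by long-read RNA sequencing while neural progenitors were reprogrammed to pluripotency. The genes were chosen by name, and all 9 had a row in the gene table and at least 3 transcripts in the transcript table, 140 transcripts in all. Their levels were described in stem cells, in progenitors, over the days of induction by OKMS and by OKS, and in serum medium against 2i-LIF.

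All libraries came from cultured mouse cells. The progenitors were neural progenitors made from the Oct4-GFP stem cell line O4G and grown in NPC medium, which is N2B27 with EGF, FGF-2 and heparin. They carried the genotype OKMS-Luciferase-AS or OKS-Luciferase-AS, stably transfected and switched on by doxycycline, or were wild type (WT). As the names read, both sets hold Oct4, Klf4 and Sox2, and OKMS adds Myc; what the luciferase and AS elements do is not said. Induction took place in FBS-LIF + dox, a medium with 15% serum, LIF and 1 µg/mL doxycycline. Wild-type cells were also kept in that medium with doxycycline for 2 days, so they share the medium and the drug but lack the factors. Some induced cultures were moved to 2i-LIF (LIF with the kinase inhibitors CHIR-99021 and PD0325901 in N2B27), at day 6 in the R9 libraries and on a day that is not given in the R10 libraries. The labels list no doxycycline in 2i-LIF. The R9 cultures in 2i-LIF are labelled as induced pluripotent stem cells. Embryonic stem cells of the lines O4G, R1 and R1 clone 3 were grown in 2i-LIF.

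The 22 R9 libraries were read as direct cDNA after enrichment of poly(A) RNA. They were 4 of progenitors (2 wild type, 1 OKMS, 1 OKS), 1 of wild-type cells at day 2, 6 each of OKMS and OKS at days 2, 4, 6, 10, 14 and 20 in FBS-LIF with doxycycline, 3 in 2i-LIF (OKMS days 14 and 20, OKS day 20) and 2 of stem cells (O4G and R1). The 23 R10 libraries were amplified cDNA from total RNA. They were 4 of progenitors (2 wild type, 1 OKMS, 1 OKS), 2 of wild-type cells at day 2, OKMS at days 2, 4, 6, 10 and 18, OKS at days 2, 6 and 18, 1 of each system in 2i-LIF at day 18, and 7 of stem cells (2 O4G, 2 R1 clone 3 and 3 R1, of which 1 bears no n number in its label). The gene values are CPM, reads on a gene scaled to the reads on all genes, and whole reads were recovered from them. R9 libraries held 447990 to 1390424 reads and R10 libraries 566599 to 4236442, so that 3 reads, the limit that a count of 0 allows, were worth 2.16 to 6.69 CPM in R9 and 0.707 to 5.29 CPM in R10; such limits cover counting error only. The labels do not say that samples of 1 group were separate cultures, so p-values measure the spread between these samples, which may be technical. The R10 libraries of day 18 and the 6 numbered stem cell libraries stood apart in 1 measure: 14.6 to 20.3% of their TPM lay in incomplete splice matches, against 7.85 to 12.9% in the other 13 R10 libraries. Their mitochondrial share of reads, 1.56 to 2.35%, overlapped the 0.124 to 1.64% of the others. Most of the cells' defining markers matched their labels. An exception was Sox1 of the neural progenitor list, which was at 0 in all progenitor libraries and was called higher in R9 stem cells (limma). The summed level of 9 neural progenitor markers was 3491 to 6032 CPM in all 8 progenitor libraries and 7.53 to 44.1 CPM in the 9 stem cell libraries, where Olig2 and Hes5 were at 0 throughout, and 5 pluripotency markers summed to 6.73 to 21.0 CPM and 8170 to 11873 CPM.

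Naive pluripotency is the state of the inner cell mass before implantation, and embryonic stem cells keep it in 2i-LIF, in which MEK and GSK3 are blocked and LIF signals through STAT3. A network of factors that bind each other's genes holds the state, and it is dismantled when cells become primed and differentiate. In reprogramming, the genes of this network must be switched on in a somatic cell that lacks them, and their expression is known as a mark of late and stably reprogrammed cells.

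For 6 of the genes a RefSeq table gave promoter windows of 300 bases on GRCm38.p6. The transcript models to which stem cell reads were assigned were set against these starts. The 4 windows printed here are those of the genes on which the order of activation and the transcript results turn. Capitals mark motif matches on either strand: the composite Oct4-Sox2 element, the octamer ATGCAAA, the Klf motif GGGNGTGG and the Sox motif ACAAAG; the octamer is part of the composite. Positions are counted from the RefSeq start.
Nanog (chr6:122707315-122707614, plus strand): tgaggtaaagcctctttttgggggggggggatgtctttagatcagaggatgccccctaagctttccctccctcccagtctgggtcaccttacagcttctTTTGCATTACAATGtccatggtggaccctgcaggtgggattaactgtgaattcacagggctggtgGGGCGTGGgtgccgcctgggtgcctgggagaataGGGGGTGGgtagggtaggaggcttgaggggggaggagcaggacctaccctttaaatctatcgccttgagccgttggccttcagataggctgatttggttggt
Zfp42 (chr8:43306960-43307259, minus strand): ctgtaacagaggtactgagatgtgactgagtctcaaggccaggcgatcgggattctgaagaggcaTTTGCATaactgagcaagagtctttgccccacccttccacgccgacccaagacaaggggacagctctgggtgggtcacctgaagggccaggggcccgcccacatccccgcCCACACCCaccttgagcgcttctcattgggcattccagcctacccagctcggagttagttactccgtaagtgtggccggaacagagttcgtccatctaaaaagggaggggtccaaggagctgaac
Nr0b1 (chrX:86191525-86191824, plus strand): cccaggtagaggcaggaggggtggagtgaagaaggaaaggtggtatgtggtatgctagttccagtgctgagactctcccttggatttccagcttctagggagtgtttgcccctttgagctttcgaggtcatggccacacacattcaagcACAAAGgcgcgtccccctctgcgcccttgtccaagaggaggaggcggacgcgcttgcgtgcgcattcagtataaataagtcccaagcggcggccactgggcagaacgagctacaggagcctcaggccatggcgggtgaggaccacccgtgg
Esrrb, upstream start (chr12:86421394-86421693, plus strand): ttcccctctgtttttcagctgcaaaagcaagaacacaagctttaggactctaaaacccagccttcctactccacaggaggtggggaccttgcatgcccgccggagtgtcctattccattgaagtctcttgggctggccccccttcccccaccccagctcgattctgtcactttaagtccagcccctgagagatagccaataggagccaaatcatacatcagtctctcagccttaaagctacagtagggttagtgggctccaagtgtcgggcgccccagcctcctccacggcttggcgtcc
Where single reads began was not measured. In the 7 R10 stem cell libraries 6936 Nanog reads were assigned to transcripts. Of these 91.0% lay on models that began within 100 bases of the RefSeq start of this window, as did all 1857 of Nr0b1. For Zfp42 it was 24.4% of 15391, since its leading transcripts began further upstream, at 43307917 and 43308261. For Esrrb it was 6.82% of 1306, and none lay on a model that began near the other RefSeq start of the gene (window chr12:86360867-86361166). All 650 Tfcp2l1 reads on transcripts, of 4949 on the gene, lay on models that began near its RefSeq start (chr1:118627695-118627994, plus strand). Of 540 Nr5a2 reads on transcripts 97.2% lay on models that began near 1 of its 2 starts (chr1:136953581-136953880, minus strand). The composite Oct4-Sox2 element lay at -151 in the Nanog window. It was found in 0.006% of all 32851 windows of the table, 2 windows, both of Nanog and overlapping. Klf matches lay at -86 and -52 of Nanog and at -75 of Zfp42, where an octamer lay at -185; 17.6% of all windows hold a Klf match and 4.63% an octamer. The only match in the Nr0b1 window was the Sox motif at -101 (18.7% of windows). The upstream Esrrb window held none of the motifs searched, which also included AAGGTCA, TTCNNNGAA and AGGTGTG.

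The first comparison set embryonic stem cells against progenitors, the start and the goal of reprogramming. All 9 genes were higher in stem cells in both chemistries, and no stem cell library overlapped a progenitor library for any of them. The share of all genes without such overlap is not given, so the lack of overlap only describes these genes. Nanog, the homeodomain factor that sustains self-renewal, ranged from 537 through a median of 908 to 1105 CPM in the 7 R10 stem cell libraries, and was 0, 0.574, 0.635 and 1.75 CPM in the 4 R10 progenitor libraries. Zfp42, a zinc finger protein better known as Rex1 and a standard reporter of the naive state, ranged from 826 through 889 to 1179 CPM in stem cells, and was 0.635, 0.879, 1.17 and 1.43 CPM in progenitors. These 2 genes had the widest log2 differences, 9.12 ± 0.24 (SE) for Nanog and 8.87 ± 0.14 for Zfp42 on the log2(CPM + 1) scale (limma, adjusted p = 9.253e-14 and 6.598e-16). Both have near-identical copies elsewhere in the mouse genome, so the authors' counting could split some of their reads.

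Orphan nuclear receptors make up 3 of the 9 genes. Esrrb, the estrogen-related receptor beta, ranged from 307 through 392 to 437 CPM in R10 stem cells. It was not silent in progenitors: it had 3.51, 4.02, 4.67 and 5.08 CPM there (46 reads in all) and 1.69 to 5.38 CPM in R9, with reads in each of the 8 libraries. Nr5a2, known as Lrh-1 and able to stand in for Oct4 in reprogramming, ranged from 27.3 through 38.1 to 48.0 CPM in stem cells and was 1.15, 1.59, 1.76 and 3.51 CPM in progenitors. Nr0b1, known as Dax1, lacks the usual DNA-binding domain and represses other receptors; it ranged from 25.9 through 88.3 to 151 CPM in stem cells and was 0, 1.17, 4.39 and 4.88 CPM in progenitors. The log2 differences were 6.18 ± 0.13 for Esrrb (limma, adjusted p = 1.556e-14), 3.75 ± 0.22 for Nr5a2 (6.647e-10) and 4.72 ± 0.49 for Nr0b1 (4.446e-07). Among the 9 genes Nr0b1 also spread most over the stem cell libraries, with a coefficient of variation of 48.0% against 9.93 to 22.6% for the other 8.

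The other 4 factors were at the edge of detection in progenitors. Tfcp2l1, a CP2-family factor and a target of LIF and STAT3, was 225 ± 22.3 CPM (SD, n = 7) in R10 stem cells and 0.499 ± 0.545 CPM (n = 4) in progenitors, and had 0 of 3114275 reads in the 4 R9 progenitor libraries, where the R9 stem cells were at least 137-fold higher (floor of 3 reads over the group). Tbx3, a T-box factor, was 154 ± 34.8 CPM against 0.584 ± 0.615 CPM. Sall4, a spalt zinc finger protein, was 164 ± 18 CPM against 0.297 ± 0.239 CPM. Prdm14, a zinc finger protein that restrains DNA methylation and FGF signalling, was 49.9 ± 5.96 CPM in stem cells and had 0 of 10613079 reads in R10 progenitors, at least 177-fold lower by the same floor. Their log2 differences were 7.30 ± 0.19 (Tfcp2l1), 6.66 ± 0.23 (Tbx3), 7.0 ± 0.16 (Sall4) and 5.66 ± 0.17 (Prdm14), all with a limma adjusted p of at most 2.043e-12. In bulk samples fewer cells of a type and less RNA per cell cannot be told apart, here and below.

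**Figure D1:**
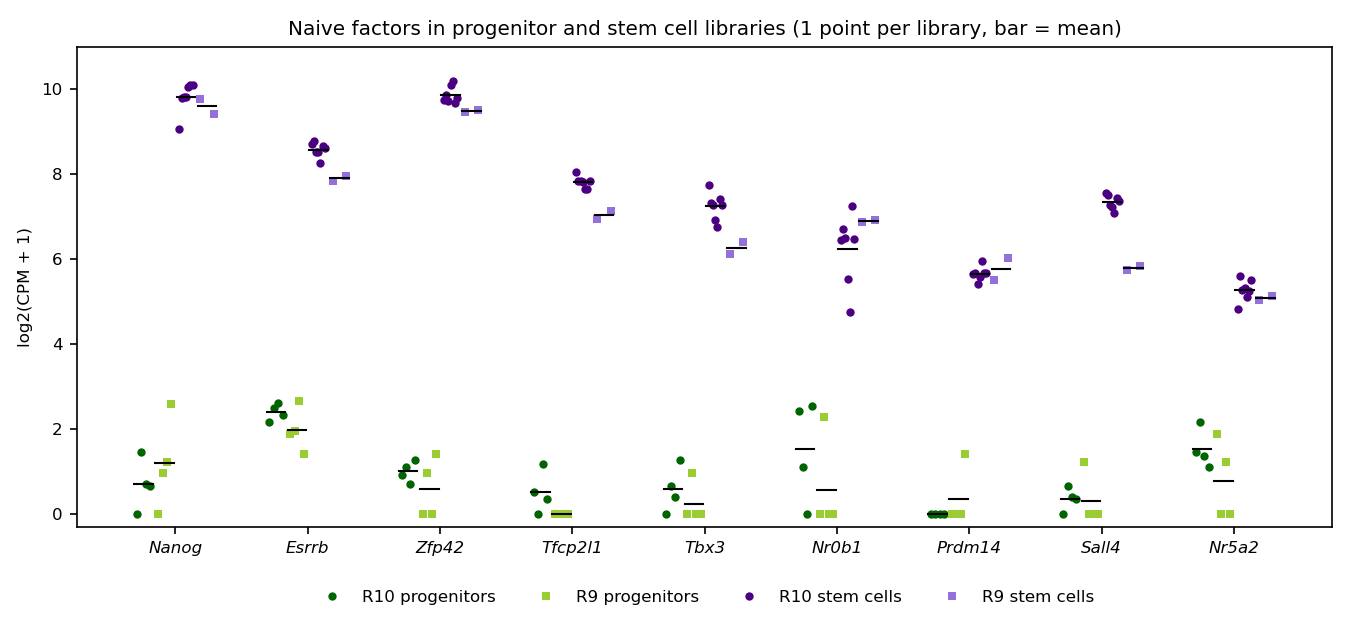
Levels of the 9 naive factors as log2(CPM + 1) in progenitors and stem cells of both chemistries; each point is 1 library and the black bars are group means. Every stem cell point lies above every progenitor point of its gene, and Esrrb has reads in all 8 progenitor libraries.

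All 9 genes passed the test in R10, where 45.8% of 15415 genes passed and 22.4% were higher in stem cells, and all 9 passed in R9, where 36% passed and 17.6% were higher; R9 differences ran from 4.32 (Nr5a2) to 8.90 (Zfp42). Only Esrrb and Nr5a2, and in R9 also Nanog, reached 1 CPM in enough progenitor libraries to pass the filter without the stem cells. The other genes passed it through the stem cells and could hardly be called lower there, so the count adds little for them. With the R1 library with no n number, which is not among those that stood apart, as the only stem cell library, the log2 differences were 3.29 to 8.74; the spread then comes from the progenitors alone, and the lone library is assumed to vary like them. Without the R1 stem cell library of R9, Nr5a2 missed the threshold there (adjusted p = 0.05042). Median centring moved the median of all genes from 0.0059 to 0.237, a small shift beside the differences of the 9 genes. The difference between the chemistries was itself called for 1 of the 9 genes, with 3.63% of all genes called. Sall4 was 53.0 and 56.8 CPM in R9 stem cells and 136 to 187 CPM in R10 stem cells, an interaction of 1.5 ± 0.39 (limma, adjusted p = 0.03647); the others ran from -1.61 (Nr0b1) and -0.58 (Nr5a2) through -0.03 (Zfp42), 0.25 (Esrrb, Tfcp2l1 and Prdm14) and 0.63 (Tbx3) to 0.72 (Nanog). The call of Sall4 was lost without any of 8 single libraries (adjusted p = 0.05341 to 0.1239) and with edgeR or DESeq2.

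Most other genes of the network were higher in stem cells as well. Of 14 other core and naive factors, 11 rose in stem cells and none fell (median log2 difference 4.05, or 4.66 with genes at 0 in 1 arm set at their bound), against a median of 0.0059 over all genes tested; the list holds Pou5f1, Sox2 and Klf4, whose reads could not be told apart from transgene reads. Of 20 further genes of the naive state, 19 rose (median 5.82, or 5.99 with bounds). Of 12 formative and primed genes, 6 rose (Dnmt3b, Foxd3, Lef1, Nodal, Otx2 and T) and 4 fell (Dnmt3a, Etv4, Pou3f1 and Sox3). Of 9 tested paralogs of the 9 factors, Sall1 rose and Sall2 and Sall3 fell.

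The stem cell lines were compared in the 7 R10 libraries. None of the 9 genes passed the test between O4G, R1 and R1 clone 3 (limma; 3 at an unadjusted p under 0.05; 0.0265% of all genes called; no gene with edgeR). The gene with the widest difference was Nr0b1, which lies on the X chromosome. It was 90.1 and 105 CPM in O4G, 87.0, 88.3 and 151 CPM in R1, and 25.9 and 45.2 CPM in R1 clone 3, so both clone 3 libraries were below the other 5. The range over the lines was 1.59 on the log2 scale (limma, adjusted p = 0.1519). For the other genes it was 0.65 (Tbx3), 0.41 (Zfp42), 0.29 (Sall4), 0.28 (Esrrb), 0.26 (Nr5a2), 0.23 (Prdm14), 0.17 (Nanog) and 0.12 (Tfcp2l1). Nr0b1 was called with DESeq2 (adjusted p = 0.001953), without the R1 library with no n number (1.72, limma adjusted p = 0.001313) and in the fit with the n numbers as a block, which also leaves out that library (3.487e-11).

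Whether the medium alone moved these genes was read from wild-type cells after 2 days in FBS-LIF with doxycycline. Esrrb was 0.783 and 0.988 CPM there and 4.02 and 5.08 CPM in wild-type progenitors of the same chemistry. Nr5a2 had no read in either day 2 library and 1.15 and 1.59 CPM in the progenitors, at least 2.55-fold lower by the floor of 3 reads over the group. Both fell in the test, Esrrb by 1.55 ± 0.38 (limma, adjusted p = 0.03292) and Nr5a2 by 1.24 ± 0.34 (0.04419), with 26.8% of all genes called and 11.9% lower. Both genes passed the filter of 1 CPM through the progenitors alone, so they could hardly be called in the other direction. These 2 calls rest on 5 and 0 reads at day 2, and both were lost when any of the 4 libraries was left out; in 3 of these 4 fits no gene of the whole table was called, and in the fourth 7.04% were. Nr0b1 was 0 in both day 2 libraries, and 0 and 4.88 CPM in the progenitors. The other 2 tested genes were not called, with differences of -0.39 for Zfp42 (adjusted p = 0.6153) and 0.69 for Tfcp2l1 (0.2747). Nanog, Tbx3, Nr0b1, Prdm14 and Sall4 were too low to be tested.

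At day 2 the factors had been on for the same time as the wild-type cells had been in the medium. Nr0b1 was 12.6 CPM with OKMS (16 reads) and 2.2 CPM with OKS (6 reads), and 0 in both wild-type libraries of R10, which by the floor is at least 23.6-fold higher with OKMS and at least 4.17-fold higher with OKS, from 1 library each. Against the progenitors of the same system the rise was smaller: these had 4.39 CPM (OKMS) and 1.17 CPM (OKS) in R10 before induction. Nanog was 3.16 and 2.99 CPM with the factors and 0.392 and 1.65 CPM without. None of the 4 tested members was called (limma; 1 at an unadjusted p under 0.05; 0.74% of all genes called). Nr0b1 was nearest, at 2.73 ± 0.73 with an adjusted p of 0.1267, and it was called with edgeR (0.04645) and with DESeq2 (0.02403). It passed the filter through the cells with the factors alone, so it could hardly be called in the other direction. Nanog differed by 1.09, Tfcp2l1 by 0.74 and Zfp42 by 0.31, while Esrrb, Tbx3, Prdm14, Sall4 and Nr5a2 were too low to be tested.

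In OKMS cells the genes appeared in a staggered order. A gene was taken as active on the first day on which it reached a threshold with at least 3 reads. The threshold was the level in progenitors of its own system plus 10% of the stem cell mean of its chemistry. This is a description of single libraries, with no test. The stem cells were in 2i-LIF and these cultures in serum, so a late entry and an effect of the medium cannot be told apart. Nr0b1 came first. In R9 OKMS cells it was 7.91 CPM at day 2, 62.6 at day 4, 47.8 at day 6, 35.2 at day 10, 41.2 at day 14 and 220 at day 20. It was active from day 4 and then already stood above 50% of the stem cell level, and its highest value was that of day 20.

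Nanog and Sall4 followed at day 6 by this threshold. Nanog was 3.39 CPM at day 2, 20.9 at day 4, 90.1 at day 6, 131 at day 10, 303 at day 14 and 250 at day 20. Sall4 was 0 at day 2, then 4.17, 45.0, 53.4, 34.8 and 88.7 CPM, against 53.0 and 56.8 CPM in R9 stem cells. At day 6 it was 82.0% of the stem cell mean in R9 and 25.9% in R10. Nanog stayed under 50% of the R9 stem cell mean through day 20.

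At day 10 came 5 genes: Esrrb, Zfp42, Tfcp2l1, Prdm14 and Nr5a2. Zfp42 was 1.13 CPM at day 2, 4.17 at day 4, 58.7 at day 6, 201 at day 10, 353 at day 14 and 725 at day 20. Esrrb was 1.13, 0, 16.4, 80.2, 102 and 159 CPM on the same days. Both were higher on each sampled day after day 4 than on the one before, and passed 50% of the stem cell level at day 20. The entries of Prdm14 and Nr5a2 at day 10 rest on 4 reads each. Prdm14 stayed at 5.63 to 6.33 CPM from day 10 to day 20, against 44.5 and 64.2 CPM in R9 stem cells. Nr5a2 was 5.63 CPM at day 10, 10.6 at day 14 and 24.6 at day 20. Tfcp2l1 was 18.3, 13.7 and 32.0 CPM on these days. Tbx3 came last, at day 14, with 4.22, 22.2 and 38.2 CPM at days 10, 14 and 20.

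In OKS cells the same genes were near the progenitor level until day 10. Sall4 alone was active at day 14, on 8 reads, and the other 8 genes at day 20. Nanog was 1.34 CPM at day 2, 2.86 at day 4, 0 at day 6, 4.46 at day 10, 11.6 at day 14 and 283 at day 20. Zfp42 was 0, 0.954, 0, 0, 35.6 and 595 CPM. Nr0b1, the first gene in OKMS cells, was 0, 2.86, 0, 2.23, 8.27 and 58.9 CPM. At day 14 all 9 genes thus lay below their OKMS level of the same day, and at day 20 some lay above it: Nanog 283 against 250 CPM, Tfcp2l1 36.6 against 32.0 CPM, Tbx3 43.8 against 38.2 CPM and Prdm14 8.62 against 6.16 CPM. These pairs are 1 library each, so how far they differ beyond replicate error is unknown.

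**Figure D2:**
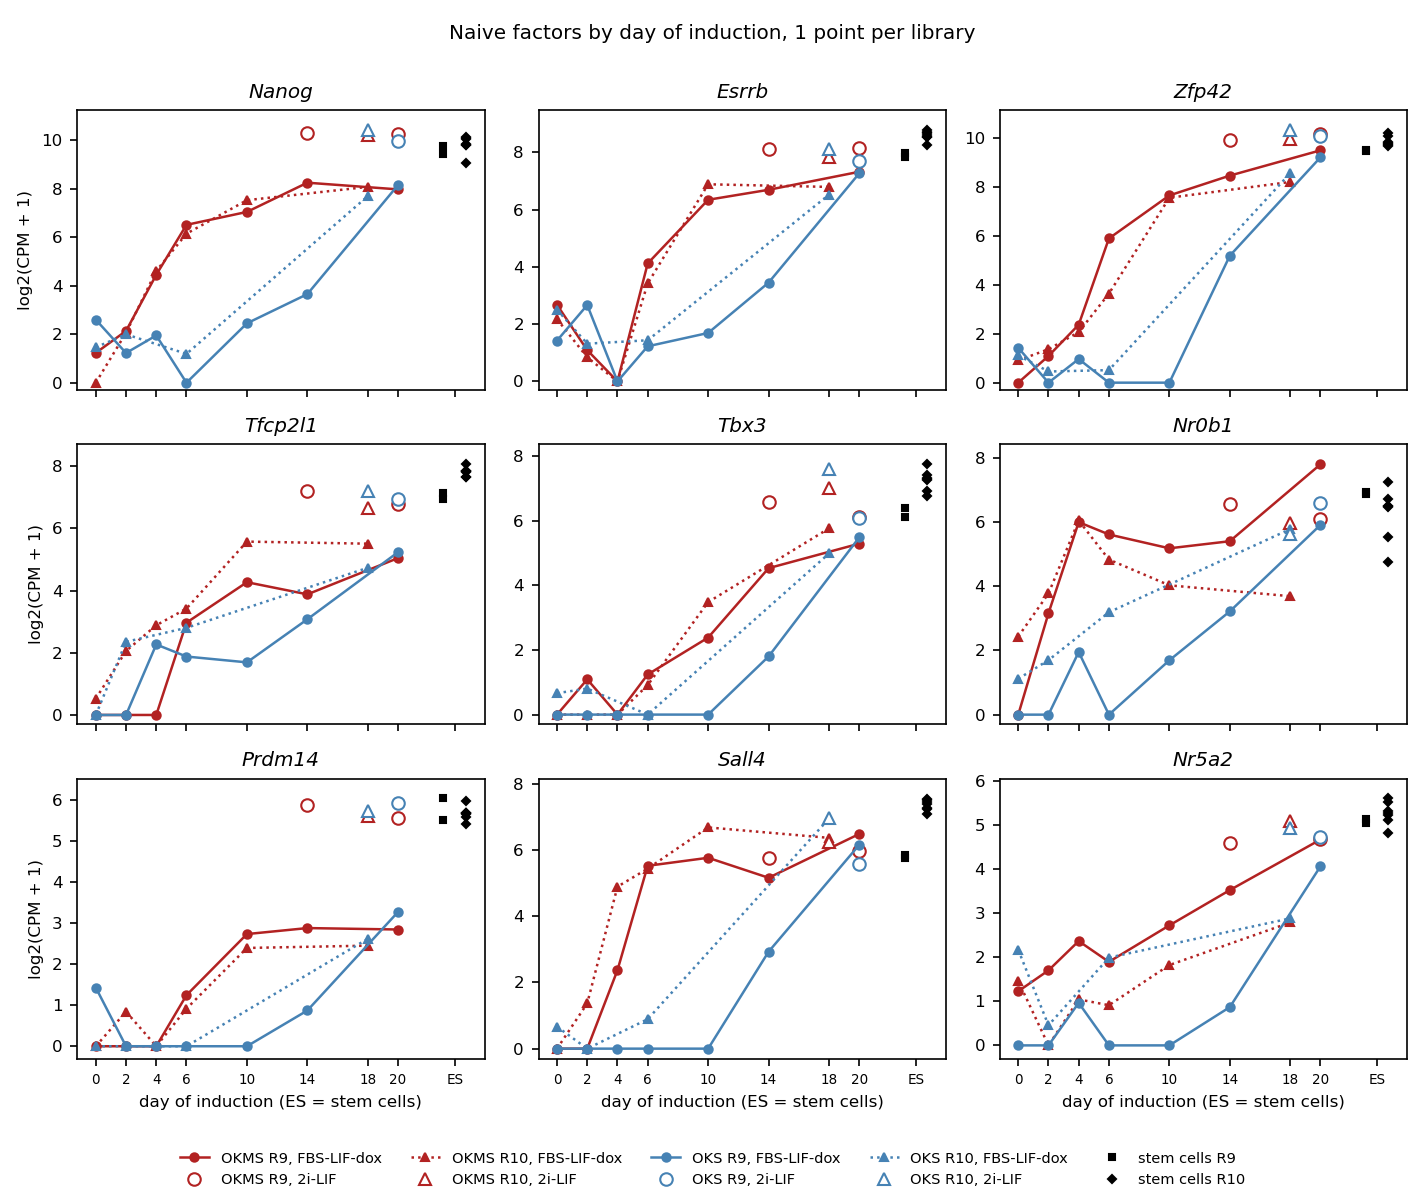
Levels of each gene as log2(CPM + 1) by day of induction, with day 0 the progenitors of the same system; lines join the libraries in FBS-LIF with doxycycline, open symbols are 2i-LIF, and black symbols at the right are stem cells. In R9 OKMS cells Nr0b1 passes 10% of the stem cell level at day 4 and Tbx3 at day 14, while in R9 OKS cells 8 of the 9 genes pass it only at day 20.

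In R10 OKMS cells Nr0b1 and Sall4 were both active from day 4 and Nanog from day 10. Nr0b1 was 12.6, 64.9, 27.4, 15.3 and 11.9 CPM at days 2, 4, 6, 10 and 18, highest at day 4 and under its own threshold again at day 18. Sall4 was 1.58, 28.7, 42.4, 102 and 81.6 CPM. Nanog (183 CPM at day 10), Esrrb (117), Zfp42 (188) and Tfcp2l1 (46.7) were active at day 10 and Tbx3 and Nr5a2 at day 18, while Prdm14 (4.45 CPM at day 18, 3 reads) was not. In R10 OKS cells day 6 showed no gene past 10%; nearest was Nr0b1 at 8.11 CPM (19 reads, 1.17 CPM in OKS progenitors), the only gene past 5% that day. At day 18 all but Nr5a2 (6.40 CPM) were past 10%. At thresholds of 5% and 25% in place of 10%, 9 and 4 genes in place of 8 were active by day 10 in R9 OKMS cells, and 3 and 0 in place of 1 by day 14 in R9 OKS cells. The order also shifted in R9 OKMS cells. At 5% Nr0b1 was active from day 2, and Zfp42 and Tfcp2l1 stood beside Nanog and Sall4 at day 6. At 25% Nanog came at day 14, after Esrrb and Zfp42 at day 10, and in R10 at day 18, after Esrrb at day 10. Nr0b1 was the first gene in R9 OKMS cells at each of the thresholds of 5%, 10%, 25% and 50%, while the place of Nanog depends on the threshold.

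Over the R9 time course 6 of the 9 genes rose by limma's moderated F test against day 0, with 10.7% of all genes called and 5.5% higher. The differences between day 20 and day 0, over both systems, were 8.65 for Zfp42 (adjusted p = 0.02267), 6.85 for Nr0b1 (0.01646), 5.39 for Tbx3 (0.009349), 5.24 for Esrrb (0.02245), 5.14 for Tfcp2l1 (0.0247) and 3.76 for Nr5a2 (0.04356). Nanog (6.15, adjusted p = 0.07214), Sall4 (6.32, 0.05401) and Prdm14 (2.34, 0.1833) did not pass, with 2 libraries a day. The calls rest on single libraries: without OKS day 20 none of the 9 was called (6 at an unadjusted p under 0.05), without day 20 none (5), without OKMS day 20 only 1, without OKMS day 14 2, and without OKS day 14 or OKMS day 2 3 each. edgeR called 9, DESeq2 7 and limma after median centring 8. The share of all genes called in these 3 fits is not given here, so these counts are no stronger result for the 9 genes. Centring moved the median of all genes from 0.63 to -0.45. Of the other core and naive factors 10 of 14 rose over the time course, as did 12 of 20 naive-state genes, against a median of 0.63 over all genes. The 10 include Pou5f1, Sox2 and Klf4, the induced factors themselves, whose reads could not be told apart from transgene reads. Neural progenitor markers summed to 120 to 2380 CPM in OKMS cells at days 2 to 10 and to 352 to 4608 CPM in OKS cells, and mesenchymal markers to 307 to 608 CPM and 771 to 1394 CPM; their part in the result was not tested.

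OKMS and OKS cells were compared over the 6 R9 days with day as a block. The days serve as the replicates, so the p-values measure how steady the gap was over days and not the spread between cultures. Of 8 tested genes 5 were higher in OKMS cells, with 18% of all genes called and 6.93% higher. The differences were 3.39 ± 0.44 for Nr0b1 (limma, adjusted p = 0.0008112), 3.27 ± 0.78 for Zfp42 (0.008603), 3.15 ± 0.68 for Nanog (0.005202), 2.70 ± 0.71 for Sall4 (0.01382) and 1.83 ± 0.43 for Nr5a2 (0.008314). Nr0b1 was higher with OKMS on all 6 days, as the values above show, while Nanog was higher on 5. Sall4 was lost without day 6 (adjusted p = 0.05987). Esrrb (1.54, adjusted p = 0.1033) and Tbx3 (1.21, 0.08145) did not pass; Esrrb was called without day 2 (0.02591) and Tbx3 without day 20 (0.04769). Tfcp2l1 differed by 0.34 (0.6761), and Prdm14 was too low to be tested. Markers of other cell types moved with this comparison: all 3 astrocyte markers were called lower in OKMS cells (median -2.35), 4 of 7 tested neural progenitor markers (-1.20) and 3 of 5 mesenchymal markers (-1.27) were lower, and 2 of 3 trophoblast markers, Krt8 and Tfap2c, were higher (2.84). Their part in the result was not tested.

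Fewer genes passed over parts of the time course. Over days 2 to 6 alone 3 were called, where 18.1% of all genes were, and over days 10 to 20 1 (7 at an unadjusted p under 0.05), where 0.833% of all genes were. In R10, where the systems share days 2, 6 and 18, none of 7 was called (limma; none at an unadjusted p under 0.05), and nor was any of the 15135 genes tested. At day 18 of R10 the values lay the other way for 5 genes: Nr0b1 was 11.9 CPM in OKMS and 53.8 CPM in OKS cells, Sall4 81.6 and 123, Zfp42 295 and 379, Nr5a2 5.94 and 6.40, and Prdm14 4.45 and 5.12 CPM. Over all genes 990 were higher and 1577 lower in OKMS cells, and 1438 and 1234 after median centring, which moved the median from -0.11 to 0.046 and after which 6 of the 9 genes were called, Tbx3 among them (adjusted p = 0.0471). With 1 line per system, the factor set and the line cannot be told apart. Of 19 tested naive-state genes 11 were higher in OKMS cells and Jam2 was lower (median 1.93, against -0.11 over all genes). Of the 14 other core and naive factors 2 were called, both higher.

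The media were compared in 5 pairs of cultures of the same system, day and chemistry: R9 OKMS days 14 and 20, R9 OKS day 20, and R10 OKMS and OKS day 18. In 2i-LIF 7 of the 9 genes rose, and Nr0b1 and Sall4 did not pass the test. Prdm14 rose most: it was 57.4, 46.2, 59.4, 47.6 and 51.6 CPM in 2i-LIF and 6.33, 6.16, 8.62, 4.45 and 5.12 CPM in FBS-LIF with doxycycline, in the order of the pairs above. The 2 media did not overlap. Nanog was 1247, 1222, 1008, 1180 and 1361 CPM in 2i-LIF against 303, 250, 283, 269 and 206 CPM, also with no overlap. Tfcp2l1 was 147, 110, 123, 101 and 147 CPM against 13.7, 32.0, 36.6, 44.5 and 25.6 CPM, again apart, with ratios of 2.26 to 10.7 within pairs.

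The remaining genes that rose did so by less. Zfp42 was 973, 1139, 1100, 991 and 1284 CPM in 2i-LIF and 353, 725, 595, 295 and 379 CPM in serum, 1.57 to 3.39 times higher. Esrrb ran from 207 to 281 CPM in 2i-LIF and from 90.9 to 159 CPM in serum. Tbx3 ran from 67.5 to 192 CPM in 2i-LIF and from 22.2 to 53.4 CPM in serum. None of these 3 overlapped between the media. The share of all genes without overlap is not given for the media either, so the lack of overlap only describes the genes named. Nr5a2 ran from 23.2 to 33.5 CPM and from 5.94 to 24.6 CPM, and in the R9 OKMS day 20 pair it was 24.7 against 24.6 CPM. Nr0b1 was 92.8, 67.7, 94.3, 61.7 and 48.5 CPM in 2i-LIF against 41.2, 220, 58.9, 11.9 and 53.8 CPM, higher in 3 of 5 pairs and with ratios of 0.307 to 5.20. Sall4 was 53.7, 61.3, 46.6, 74.1 and 124 CPM against 34.8, 88.7, 70.4, 81.6 and 123 CPM, higher in 2 of 5.

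**Figure D3:**
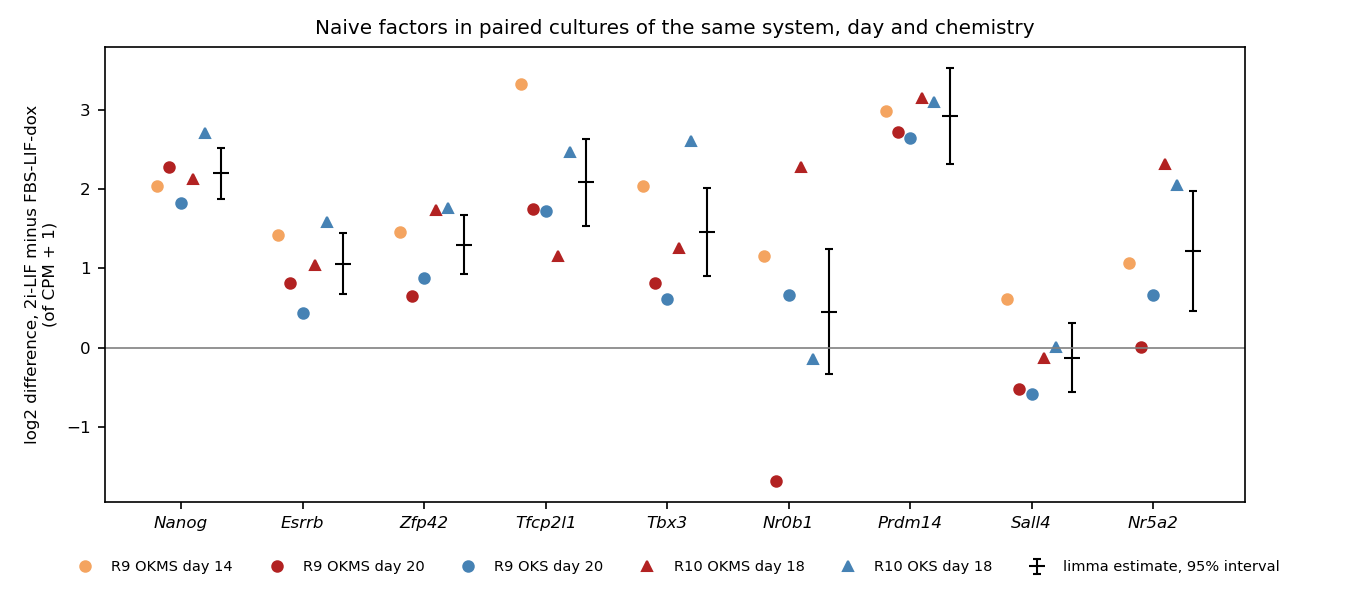
Log2 ratio of CPM + 1 in 2i-LIF over FBS-LIF with doxycycline for each gene, with 1 coloured point per pair of cultures and a black bar with whiskers for the limma estimate and its 95% interval. Prdm14, Nanog and Tfcp2l1 lie farthest above 0, and the intervals of Nr0b1 and Sall4 span 0.

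With the pair as a block the differences were 2.93 ± 0.29 for Prdm14 (limma, adjusted p = 3.179e-06), 2.20 ± 0.15 for Nanog (8.87e-08), 2.09 ± 0.26 for Tfcp2l1 (3.66e-05), 1.46 ± 0.26 for Tbx3 (0.0009835), 1.30 ± 0.18 for Zfp42 (7.209e-05), 1.22 ± 0.36 for Nr5a2 (0.02814) and 1.06 ± 0.18 for Esrrb (0.0006772); 12.3% of all genes were called and 5.95% were higher. Nr0b1 differed by 0.45 (adjusted p = 0.4791), with a 95% interval from -0.34 to 1.24, and Sall4 by -0.13 (0.7614), from -0.57 to 0.31. Nr5a2 was lost without any of 4 of the 5 pairs (adjusted p = 0.06242 to 0.1217). Esrrb fell under the minimum difference of 1 without the R9 OKMS day 14 pair (0.97) or the R10 OKS day 18 pair (0.93). The effect of the medium was not shown to differ between OKMS and OKS for any of the 9 genes (limma; none at an unadjusted p under 0.05; 0.0867% of all genes called). Nr0b1 alone was called in that test when a pair was left out, at 2.02 without R9 OKMS day 20 (adjusted p = 0.0104) and -1.95 without R10 OKMS day 18 (0.002955), in opposite directions.

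Other genes of the network were called in both directions. Of the 14 other core and naive factors 2 rose in 2i-LIF (Klf2 and Tcl1) and 3 fell, Lin28a and Utf1 among them, with a median of 0.06 against -0.027 over all genes. Of 20 naive-state genes 8 rose and 2 fell (Dnmt3l and Lefty1). Of 10 tested formative and primed genes none rose and 5 fell (Dnmt3a, Dnmt3b, Etv4, Lef1 and Pou3f1), with a median of -0.55. None of 11 paralogs was called. Serum, the inhibitors CHIR-99021 and PD0325901, the N2B27 base and doxycycline, which the labels do not list for 2i-LIF, differ between the media together and cannot be told apart here. Over the 6 late libraries in serum (R9 days 14 and 20, R10 day 18) mesenchymal markers summed to 77.2 to 2478 CPM, and over the 5 in 2i-LIF to 17.6 to 28.1 CPM; neural progenitor markers summed to 26.7 to 186 CPM and 7.05 to 62.6 CPM, and germ cell markers, a list that holds Tfap2c, to 9.93 to 111 CPM and 144 to 400 CPM. Their part in the result was not tested.

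Reprogrammed cells in each medium were then set against stem cells, with chemistry as a term. In 2i-LIF none of the 9 genes was called (limma; 5 at an unadjusted p under 0.05; edgeR 0, with 4 at an unadjusted p under 0.05; DESeq2 0, also with 4; 3.36% of all genes called). Nanog was 1204 ± 128 CPM (SD, n = 5) in these cells, a log2 difference of 0.52 from stem cells (adjusted p = 0.06092). Zfp42 was 1098 ± 126 CPM (0.39, 0.06937), Tfcp2l1 125 ± 21.1 CPM (-0.52, 0.05793) and Sall4 71.8 ± 30.7 CPM (-0.45, 0.1202). Esrrb was 253 ± 33.2 CPM (-0.32, 0.2072), Nr0b1 73.0 ± 20.0 CPM (-0.46, 0.4016) and Nr5a2 27.4 ± 4.2 CPM (-0.33, 0.2647). For Tfcp2l1, Sall4 and Esrrb the values by chemistry lay apart, which was not tested. In R9 the means were 127 against 132 CPM in stem cells for Tfcp2l1, 53.9 against 54.9 CPM for Sall4 and 254 against 240 CPM for Esrrb, and in R10 124 against 225, 98.8 against 164 and 251 against 385 CPM. Tbx3 (0.03) and Prdm14 (0.0047) lay closest to the stem cell level.

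The late cells in serum lay below the stem cells for 7 of the 9 genes, with 17.4% of all genes called and 9.17% lower. The stem cells were in 2i-LIF, so medium and cell type differ together in this comparison and cannot be told apart. The differences were -3.21 for Prdm14 (limma, adjusted p = 1.283e-06), -2.72 for Tfcp2l1 (2.439e-06), -2.24 for Nanog (0.007132), -2.15 for Nr5a2 (0.001835), -1.92 for Tbx3 (0.004025), -1.84 for Esrrb (0.006692) and -1.45 for Zfp42 (0.0388). Zfp42 was lost when any of 8 of the 15 libraries was left out and with edgeR (0.07143). Sall4 (-0.66, adjusted p = 0.2633) and Nr0b1 (-1.42, 0.08315) did not pass, and Nr0b1 was called without the R9 OKMS day 20 library (-1.75, 0.01189). In R9 alone none was called (2 at an unadjusted p under 0.05), where 1.17% of all genes were called. The serum cells spread widely: Nanog was 220 ± 107 CPM (SD, n = 6), with 11.6 CPM in R9 OKS cells at day 14 as the lowest, and Nr0b1 65.7 ± 78.6 CPM. In the same test 4 of 5 mesenchymal markers were called higher in the serum cells (Acta2, Col1a1, Thy1 and Twist1, median 2.44), as were 3 of 6 neural progenitor markers (Fabp7, Pax6 and Slc1a3, median 1.57); their part in the result was not tested.

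At the level of transcripts, 82 of the 140 transcripts of the 9 genes had enough TPM to be tested in R10, and 81 of them were called higher in stem cells than in progenitors (limma on log2(TPM + 1)); the exception was Nr5a2.G2474.22 (0.95, under the minimum of 1). Of all tested transcripts 39.8% were called and 23.4% were called higher. The progenitors had 0 to 21 reads on the transcripts of a gene, so these transcripts passed the filter through the stem cells and could hardly be called in the other direction; the count is no further support for the difference between the cells. Their values are TPM, which rise with the share of reads and fall with transcript length. The annotated 4-exon Nanog form (Nanog.G44425.88, 305 amino acids) held 4648 of 6936 Nanog reads in stem cells, 67.0%; Nanog.G44425.125 and Nanog.G44425.279, which match no annotated transcript, had 400 and 366. The annotated form of Nr0b1 (Nr0b1.G56147.13, 472 amino acids) held 83.6% of its reads in stem cells and 21 reads in progenitors, beside 281 stem cell reads on the non-coding Nr0b1.G56147.7 and 23 on Nr0b1.G56147.4. Nr5a2.G2474.6 (499 amino acids) held 50% of Nr5a2 reads, followed by Nr5a2.G2474.2 with 132, Nr5a2.G2474.20 with 64 and Nr5a2.G2474.29, the one with a progenitor read, with 44. All 3 genes had a leading form that matched an annotated coding transcript in full.

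Other genes had partial models beside the full-length ones. Read counts given for them are those of R10 stem cells. Of 1982 Tbx3 reads 528 (26.6%) lay in 3 single-exon models, of which 2 (Tbx3.G40758.8 with 283 and Tbx3.G40758.38 with 153 reads) had no coding frame; a 2-exon partial model, Tbx3.G40758.77, had 253. All 3 match an annotated single-exon transcript, so they are counted within the 861 reads (43.4%) on full splice matches. For Prdm14 the full 8-exon form (Prdm14.G126.10, 561 amino acids) had 261 reads, a 2-exon fragment (Prdm14.G126.11) 242 and Prdm14.G126.13, of the same protein length as the full form, 78. Mean TPM of the full form and the fragment was 5.75 and 12.2 in R10 stem cells, and 2.19 and 46.6 in R9 stem cells. The full Sall4 form had 165 reads in 1 model (Sall4.G31440.51, 1067 amino acids) and 24.9% of the gene's reads in another of the same annotated transcript (Sall4.G31440.26), while the unannotated Sall4.G31440.53 and Sall4.G31440.6 had 91 and 84. For Tfcp2l1 a 15-exon model (Tfcp2l1.G1896.15, 479 amino acids) had 139 reads, partial models of 7 (Tfcp2l1.G1896.31) and 2 exons (Tfcp2l1.G1896.61) 171 and 38, and a second 15-exon model (Tfcp2l1.G1896.49) 29.9% of the gene's reads. Sall4.G31440.26, Tfcp2l1.G1896.49 and Nr5a2.G2474.22 were named after their values were seen. Full splice matches held 84.9% of the reads of Nr0b1, 80.4% of Zfp42, 73.8% of Nanog, 72.8% of Nr5a2, 71.8% of Esrrb, 63.7% of Tfcp2l1, 62.6% of Sall4 and 48.9% of Prdm14. Zfp42 was split over starts: Zfp42.G49708.97 (288 amino acids, start 43307917) held 7370 reads and Zfp42.G49708.200 (start 43308261) 3788, both upstream of the RefSeq window printed above, and the partial Zfp42.G49708.215 held 465. In mm10 the GENCODE M21 genes of these names lie at the following positions: Nanog chr6:122707489-122714633 (plus strand), Esrrb chr12:86361117-86521628 (plus), Zfp42 chr8:43295063-43306980 (minus), Tfcp2l1 chr1:118627945-118685168 (plus), Tbx3 chr5:119670669-119684724 (plus), Nr0b1 chrX:86191764-86195947 (plus), Prdm14 chr1:13113457-13127163 (minus), Sall4 chr2:168748332-168767943 (minus) and Nr5a2 chr1:136842571-136960448 (minus).

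The few Esrrb reads of progenitors that were assigned to a transcript lay on a model with another first exon than most of those of stem cells. The exon that led in stem cells starts at 86470079 on chromosome 12 and splices from 86470555 (Esrrb.G12103.8, matching ENSMUST00000167891, 6 exons, 433 amino acids). The upstream exon starts at 86421613 and splices from 86421964 (Esrrb.G12103.1, matching ENSMUST00000110204, 7 exons, 454 amino acids), inside the upstream window printed above. In the 7 R10 stem cell libraries 900 of 1306 Esrrb reads (68.9%, exact binomial 95% interval 66.3 to 71.4%) used the downstream exon and 89 (6.82%, 5.51 to 8.32%) the upstream one; of the 900, the 2-exon partial model Esrrb.G12103.9 held 36. In R10 progenitors all 4 reads that reached a transcript, 1 in each library, used the upstream exon (interval 39.8 to 100%), as did both reads of the R9 progenitors (6 of 6 over both chemistries, 54.1 to 100%). Such intervals cover counting error only. No progenitor read on a transcript used the downstream exon. The gene had 46 reads in R10 progenitors and 10 in R9 progenitors, so the first exon of most of them is unknown. Over all libraries 14.9% of Esrrb reads lay on transcripts.

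The upstream share was 6.81% on average over the 7 R10 stem cell libraries (4.13 to 9.95%) and 100% in each of the 4 progenitor libraries. An exact permutation test over libraries, chosen after the data were seen since no progenitor library reached the 1 TPM set for the planned test, gave p = 0.003, the smallest that 7 libraries against 4 can give. With 1 read per progenitor library the share there can take no value but 0 or 100%. The upstream exon was itself chosen for this test with these progenitor reads already known. The p-value is therefore no further support for the difference. The upstream form itself was also higher in stem cells, by 1.07 (limma, adjusted p = 0.002013). It reached at most 0.29 TPM in R10 progenitors, so it passed the filter through the stem cells and could hardly be called in the other direction. The other reads of stem cells lay on models that match no annotated transcript. The first base most used among these was shared by 2 models, with 89 (Esrrb.G12103.118) and 73 reads.

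**Figure D4:**
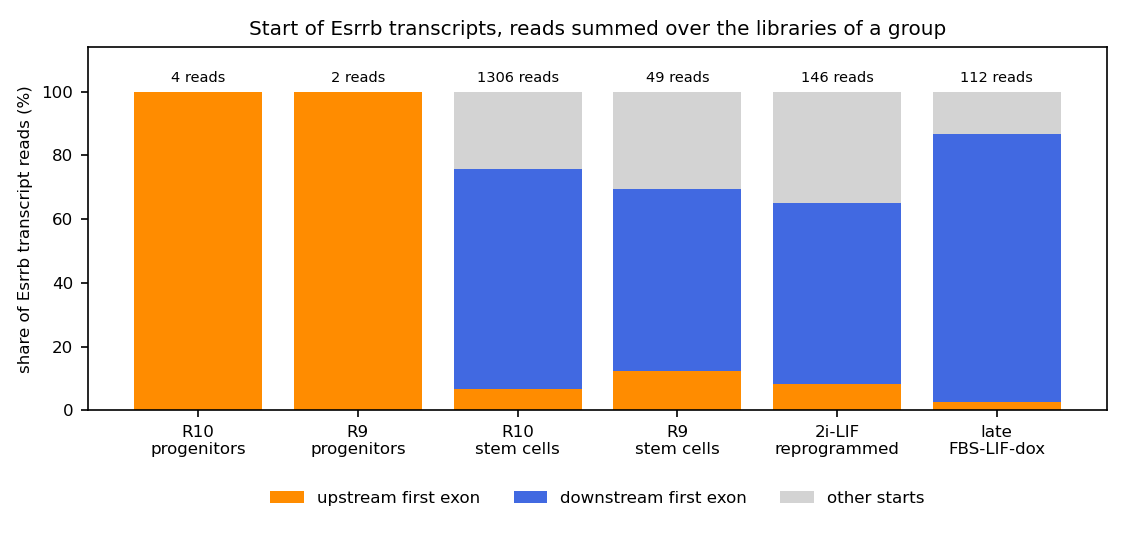
Share of Esrrb transcript reads by first exon, in percent of the reads summed over the libraries of a group, with the number of reads above each bar. The progenitor bars hold the upstream exon alone, on 4 and 2 reads, and the downstream exon leads in the other 4 groups.

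In late reprogrammed cells most Esrrb reads used the downstream exon. In the late serum libraries 94 of 112 reads (83.9%) came from the downstream exon and 3 (2.68%) from the upstream one, and in 2i-LIF 83 (56.8%) and 12 (8.22%) of 146. Over the 5 pairs of media the downstream exon held 43.4% of Esrrb TPM in 2i-LIF and 76.7% in serum, a difference of -33.3 points (exact sign-flip permutation test, p = 0.125). As a share of reads it was 55.0 against 82.2%, lower in 2i-LIF in all 5 pairs, which gives the smallest p that 5 pairs allow in the exact test, and among full splice matches alone 87.0 against 95.8% (exact p = 0.375). At 5 pairs no such difference can pass 0.05. Before day 14 few reads reached an Esrrb transcript. In R9 OKMS cells both reads of day 6 used the downstream exon, and of 4 at day 10 2 used it and 1 the upstream exon; in R9 OKS cells the only read, at day 6, was on the upstream exon. In R10 OKMS cells 1 read at day 6 was on the downstream exon and the 4 of day 10 were split, 2 on each, and in R10 OKS cells the only read, at day 2, was on the downstream exon.

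The 9 genes tracked each other over the libraries. Pearson's r of log2(CPM + 1) over their 36 pairs ran from 0.771 to 0.976 over the 22 R9 libraries (median 0.917) and from 0.742 to 0.979 over the 23 R10 libraries (median 0.931). These points share libraries and a common divide between cells with and without the network, so the values are a description. Among 11491 other genes with a mean of at least 5 CPM in R9, the most alike by r over the R9 libraries was Nodal for Zfp42 (r = 0.991 in R9 and 0.988 in R10), Zfp42-ps1 for Tbx3 (0.993 and 0.983), Ooep for Nanog (0.978 and 0.94), Triml1 for Esrrb (0.978 and 0.969), Oas1a for Prdm14 (0.982 and 0.98), Gpa33 for Sall4 (0.977 and 0.942), Chmp4c for Tfcp2l1 (0.963 and 0.955), Xrcc5 for Nr5a2 (0.962 and 0.907) and Tfap2c for Nr0b1 (0.954 and 0.843). Over the R10 libraries another of the 3 genes ranked highest in R9 was closer for every member but Nr5a2, among them Elf3 for Nanog (r = 0.983), Trp53 for Nr0b1 (0.916) and Rpl10l for Tbx3 (0.99). Of the 9 pairs ranked first in R9, that of Nr0b1 had the lowest r in both chemistries. Zfp42-ps1 is a processed copy of Zfp42, so its reads may be shared with that gene.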

How the data were processed

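Long-read cDNA was sequenced in 45 libraries of mouse cells (22 R9, 23 R10). The authors deposited gene CPM in a table named after IsoQuant and transcript TPM in a second table, per the file headers; alignment used minimap2 2.24-r1122 and the build was mm10, per the submitters' processing notes. Counting filters and the use of strand are not given in the sources used here, so antisense and overlapping genes are uncertain. A further 13 columns of the gene table belong to no sample and were left out. Within each library every CPM was a whole number of reads times a constant, to 0.1 reads (100% of values), so reads and depth were recovered. Deposited TPM times transcript length gave whole reads likewise (100%), and 38.0 to 52.9% of gene reads lay on transcripts.

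Gene values were compared on the log2(CPM + 1) scale with limma 3.58.1 (trend) in R 4.3.3, two-sided. Genes entered with at least 1 CPM in a number of libraries equal to the smaller arm. A call needs a log2 difference of at least 1 in size and an adjusted p (Benjamini-Hochberg, all genes tested) under 0.05; the scale understates the change of low genes. Transcripts needed a TPM of at least 1 in at least 4 libraries. Settings varied were the pseudocount (0.25), the filter (none, or a minimum of 5), median centring, and the tool: on the recovered reads, edgeR 4.0.16 (quasi-likelihood test) called 7599 genes and DESeq2 1.42.0 7523 for R10 stem cells against progenitors, where limma called 7067. Other arms, replicate blocks and leaving out each library were also tried. Scripts were tested on simulated data. Promoter windows are from RefSeq (GRCm38.p6) and gene positions from GENCODE M21. All 9 members enter each comparison, and by rule the text names the 3 transcripts per member with the highest mean TPM in R10 stem cells and the highest in R10 progenitors. The members and the lists were chosen with earlier results of these data known.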

Additional observations from a re-analysis of the deposited data

Results flagged for a closer look

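A library lay far from the others of its group in 7 of 45 groups of 4 to 7 libraries. How many chance would give is unknown, since any read is flagged where all other libraries of a group are at 0. The group of late serum libraries also mixes systems, days and chemistries. In 4 of these the group was the R9 progenitors and the value rests on 1 to 4 reads: Tbx3 at 0.968 CPM (1 read) and Nr0b1 at 3.87 CPM (4 reads) in wild-type library 2, Sall4 at 1.34 CPM (1 read) in wild-type library 1, and Prdm14 at 1.69 CPM (1 read) in OKS cells, each with 0 in the other 3. Nanog was 537 CPM in the R1 stem cell library with no n number, below the other 6 R10 stem cell libraries. Among the 6 late libraries in serum, Nanog was 11.6 CPM in R9 OKS cells at day 14, far below the rest, and Nr0b1 was 220 CPM in R9 OKMS cells at day 20, far above the rest.

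The difference between stem cells and progenitors was larger in R10 than in R9 for Sall4, by 1.5 on the log2 scale in the test of that difference (limma, adjusted p = 0.03647). RNA selection, library chemistry and pore differ between these sets of libraries together and cannot be told apart.

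Features named as antisense to 4 of the genes enter none of the comparisons. For 3 of them each R10 stem cell library was above each R10 progenitor library. Their means were 13.7 CPM for novelGene_Nanog_AS, 4.23 CPM for novelGene_Prdm14_AS and 1.69 CPM for novelGene_Esrrb_AS. The lowest stem cell value of novelGene_Esrrb_AS, 0.373 CPM, was 1 read. In the OKMS and OKS progenitor libraries 1 read was worth more, 0.439 and 0.584 CPM, so a lack of overlap is not shown there. The share of all features without overlap is not given, so it only describes these features. The fourth, novelGene_Nr0b1_AS, had 10 reads (0.45 CPM) in R10 stem cells, with 2 of the 7 libraries at 0, and 0 in R10 progenitors.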

How the results depend on the processing

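Of 243 alternative values of the counts and first exon tests 201 were labelled the same, 8 stronger and 34 weaker. A count was labelled the same if it stayed within a set ratio of the main count, so it could lose or gain some genes. A first exon test was labelled the same if its p stayed on the same side of 0.05. Of 1693 values of single genes 1491 kept their side of the threshold for a call, 33 passed it anew, 113 lost it and 56 changed sign. The causes were not tested, beyond fewer samples where arms were narrowed. The count for chemistry by cell type was 0 with a pseudocount of 0.25, edgeR and DESeq2 (0 to 1 on leaving out a library), where Tfcp2l1 turned to -0.53, -2.56 and -0.44 and Zfp42 to 0.0328 with median centring; leaving out a library gave -0.304 to 0.171 for Zfp42 and -0.105 to 0.512 for Prdm14. The 2 calls of the medium in wild-type cells became 1 with no filter, 0 with DESeq2, 0 in R9 and 0 on leaving out any library (Zfp42 -0.997 to 0.216). At day 2 edgeR and DESeq2 called 1 gene each, and Zfp42 ran from -0.300 to 0.913. The time course count ran from 0 to 7 without single libraries or days (Prdm14 -1.89 to 3.52), and Nr5a2 was -1.59 over the R10 days. OKMS against OKS gave 0 in R10, 3 over days 2 to 6 and 1 over days 10 to 20; Nr5a2 was -0.54 in R10 and Tfcp2l1 -0.39 over days 2 to 6 and -0.113 to 0.856 without single days. The media gave 4 in R9 alone and 4 in R10 alone (Nr0b1 -0.0027 to 0.990 without single pairs). These counts, like the other gene counts of this paragraph, stand without the share of all genes called in the same fit. System by medium ran from 0 to 1 without single pairs. There Nr0b1 was -0.30, -0.77 and -0.34 and Prdm14 -0.27, -0.0473 and -0.0536 with median centring, edgeR and DESeq2, and without single pairs the ranges were -0.509 to 0.380 for Nanog, -0.649 to 0.496 for Esrrb, -0.671 to 0.422 for Zfp42, -1.58 to 0.420 for Tbx3, -1.95 to 2.02 for Nr0b1, -0.164 to 0.290 for Prdm14, -0.340 to 0.255 for Sall4 and -1.35 to 0.957 for Nr5a2. For reprogrammed cells in 2i-LIF against stem cells, Prdm14 was -0.0074 with edgeR, -0.0025 in R10 and -0.0816 to 0.0874 without single libraries, Tbx3 -0.0114 in R9 and -0.102 to 0.141, and Esrrb 0.0692 in R9. Late serum cells against stem cells gave 0 in R9. Stem cell lines gave 1 with DESeq2, 1 with the replicate block, which also leaves out the library with no n number, and 0 to 1 without single libraries. Transcripts called were 36 of 36 at a TPM of at least 5, where 53.8% of all transcripts were called, and 51 of 53 in R9, where 13.4% were. Genes active by day 10 in OKMS cells were 4 at 25%, and by day 14 in OKS cells 3 at 5% and 0 at 25%. A minimum of 5 CPM left no gene of the 9 to test in the medium and day 2 comparisons.

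Among all genes, calls higher and lower were 110 and 4 at day 2 against 289 and 110 after median centring, 247 and 419 against 319 and 349 for chemistry by cell type, and 7 and 6 against 3 and 10 for system by medium. Whether same-numbered libraries pair is undecided: deviations correlated at 0.474 in the wild-type media, with 2 pairs only, and at 0.073, 0.161 and 0.131 in the stem cell lines. The replicate block kept the number of calls for the medium at 2, with 5605 in place of 3940 over all genes. For the lines the block gave 1 call, as did leaving out the library with no n number by itself. Depth limits the R9 values: 1 read was worth more than 0.7 CPM in each R9 library, so Prdm14, Nr5a2 and Tbx3 before day 14 rest on a handful of reads.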

Other observations

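The antisense features of Nanog and Prdm14 had higher means in 2i-LIF than in late serum cells. NovelGene_Nanog_AS was 18.8 ± 4.40 CPM (SD, n = 5) in reprogrammed cells in 2i-LIF, 2.86 ± 2.11 CPM (n = 6) in late cells in serum and 13.7 ± 7.25 CPM (n = 7) in R10 stem cells. NovelGene_Prdm14_AS was 16.0 ± 13.3 CPM in 2i-LIF, from 4.89 to 38.4 CPM, and 0 to 3.17 CPM in late serum cells; it was 24.6 and 35.4 CPM in the 2 R9 stem cell libraries and 4.23 ± 1.62 CPM in R10. NovelGene_Esrrb_AS had the lower mean in 2i-LIF, 1.98 ± 2.18 CPM against 3.09 ± 4.47 CPM in late serum cells, and novelGene_Nr0b1_AS had 2 reads and 1 read in these groups. Whether these reads are antisense RNA or reads of the sense genes was not tested.

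Zfp42-ps1, the processed copy of Zfp42, was 33.1 and 43.7 CPM in R9 stem cells, 14.0 ± 3.25 CPM (SD, n = 7) in R10 stem cells, 30.1 ± 9.49 CPM (n = 5) in reprogrammed cells in 2i-LIF and 2.48 to 25.9 CPM in late serum cells. Zscan4c and Zscan4d, markers of cells that resemble the early embryo and the 2 of 4 listed that had a row, summed to 41.5, 19.3 and 8.15 CPM in the 3 R9 libraries of reprogrammed cells in 2i-LIF and to 0 in both R9 stem cell libraries, where 3 reads over the group are worth 1.41 CPM. In R10 the sums were 14.1 and 105 CPM in reprogrammed cells in 2i-LIF and 0.747 to 4.65 CPM in stem cells, in the same medium.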
